A study of Mus musculus with 2 samples.

Results

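A set of 7 genes of the GABA-A receptor is described here across the neurons and glia of mouse thalamus. They are the alpha subunit genes Gabra2, Gabra3, Gabra4 and Gabra5, the beta subunit genes Gabrb1 and Gabrb2, and the delta subunit gene Gabrd. These 7 genes were picked by symbol from 32285 gene rows, and all 7 had a row in both count tables. The tables came from single-nucleus RNA sequencing of the thalamus of C57BL/6J mice, 1 library after sham surgery and 1 after cortical ablation injury, in which sensory and motor cortex was removed by suction on the operated side. Sham mice received a burr hole only. Each library held nuclei from 4 female mice aged 3 months, mixed in equal number per mouse, and the tissue was the thalamus of the operated side at day 21. The mice of a pool cannot be separated, so each group was 1 sample, and no difference between the libraries had a replicate check or a test. Intervals are at 95% and cover counting error only, not the spread between mice.

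The GABA-A receptor is a chloride channel built from subunits around a central pore, in most cases alpha and beta subunits together with a gamma or a delta subunit. The alpha subunit sets much of the receptor's GABA affinity, kinetics and drug binding. Receptors of alpha4, beta and delta subunits lie outside synapses in thalamic relay neurons, where they carry a lasting inhibitory current in response to ambient GABA. Neurons of the thalamic reticular nucleus, which inhibit relay neurons, are known for alpha3-containing receptors.

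The sham library kept 16373 nuclei with a median of 7190 unique molecular identifiers (UMIs, counted RNA molecules), and the injury library kept 21777 nuclei with a median of 6810 UMIs. Nuclei were clustered with the subunit genes and 28 other genes of GABA signalling left out of the features. The 31 clusters were named from marker genes, and a name here means that a cluster resembles that cell type. Relay-like nuclei formed 4 clusters with 3670 sham and 3892 injury nuclei. Habenula-like nuclei formed 3 clusters, led by the choline acetyltransferase gene Chat, by Ptprq and by Pde11a, with 1868 sham and 2188 injury nuclei. Reticular-like nuclei formed 1 cluster led by Six3, with 471 sham and 824 injury nuclei. The other GABAergic class was 1 cluster led by Gata3 and Pax6, with 1911 sham and 3172 injury nuclei. Glutamatergic nuclei that took no name made up 8 further clusters, with 5063 sham and 5095 injury nuclei. A further 2 neuron clusters whose leading genes included a marker of another class held 1201 sham and 1058 injury nuclei and were kept out of the classes, as were 3 clusters with 4 sham and 962 injury nuclei in all. Of these 3, a cluster led by Ano2 with 4 sham and 448 injury nuclei was also named other GABAergic. The rest resembled cortex or hippocampus and came from the injury library alone. Clusters in which over 50% of nuclei were called doublets were set apart and held 790 sham and 1332 injury nuclei. The calling rule fixed the share of doublets by the size of a library, at 13.3% of sham and 17.8% of injury nuclei. The higher share of the injury library is thus not a measured difference. The libraries shared 101 barcodes, and leaving them out is among the alternatives.

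Markers of the named cells were present. The reticular-like cluster held 9 of 9 reticular markers at 2-fold or more over all other nuclei, and the relay-like clusters held 4 to 8 of 12 relay markers. The Chat, Ptprq and Pde11a clusters held 9, 6 and 11 of 15 habenular markers. The other GABAergic cluster held 7 of 12 markers of its list. Oligodendrocyte markers differed between the libraries in neurons: all 5 were higher in the injury library in each of the 5 neuron classes, with a summed level, in counts scaled to a common total (CPM), of 39.1 to 91.7 CPM in sham and 61.1 to 210.1 CPM in injury. Astrocyte markers were higher in the injury library for 5 of 5 genes in relay-like, habenula-like and reticular-like nuclei and 4 of 5 in the other 2 classes, with sums of 2.12 to 9.17 CPM in sham and 5.37 to 12.1 CPM in injury. Microglial markers were higher for 3 to 5 of 5 genes, with sums of 79.5 to 132.0 CPM in sham and 87.4 to 151.4 CPM in injury, and Slc1a3, Csf1r and C1qa were at 0 in reticular-like sham nuclei. The 3 GABAergic markers were all higher in the injury library in habenula-like nuclei (summed level 15.5 and 16.6 CPM) and other glutamatergic nuclei (15.1 and 20.8 CPM), and 2 of 3 were higher in relay-like nuclei (2.61 and 3.00 CPM). They were all lower in reticular-like nuclei (818.6 and 780.4 CPM) and other GABAergic nuclei (435.5 and 372.5 CPM). The part of this RNA in the differences between libraries was not tested.

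Gabra2, Gabra4 and Gabrb1 lie near each other on chromosome 5, and the starts of Gabra4 and Gabrb1 overlap. In GENCODE M21 on GRCm38, Gabra2 covers chr5:70957597-71095849 on the minus strand, Gabra4 covers chr5:71569749-71658308 on the minus strand, and Gabrb1 covers chr5:71658113-72149037 on the plus strand. Gabra4 and Gabrb1 run away from each other and share 196 bases at their 5′ ends, whereas 473.9 kb separate Gabra2 from Gabra4. The other members lie apart: Gabra3 at chrX:72432681-72656848 on the minus strand, Gabra5 at chr7:57407672-57510059 on the minus strand, Gabrb2 at chr11:42419757-42629028 on the plus strand, and Gabrd at chr4:155384980-155398112 on the minus strand. Gabra3 and Gabrb1 also overlap small genes on their own strand, so a few of their counts could belong to those. Gene bodies range from 13.1 kb for Gabrd to 490.9 kb for Gabrb1. A nucleus holds unspliced RNA, and a long gene gives more of it, so levels are compared between genes only per length.

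The bases before the annotated starts of Gabra2, Gabra3 and Gabra4 are shown because these 3 alpha genes marked different neurons in the results that follow. Sequences are from RefSeq on GRCm38.p6, 5′ to 3′ on the minus strand, with each CG pair in capitals. Of the 7 members, 6 had an entry in that table, in 10 windows.
Gabra2, chr5:71095850-71096099: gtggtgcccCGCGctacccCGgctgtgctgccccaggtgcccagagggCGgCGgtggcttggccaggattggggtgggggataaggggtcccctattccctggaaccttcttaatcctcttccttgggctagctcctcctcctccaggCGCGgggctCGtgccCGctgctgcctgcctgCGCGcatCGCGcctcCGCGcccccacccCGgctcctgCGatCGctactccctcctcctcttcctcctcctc
Gabra4, chr5:71658364-71658558: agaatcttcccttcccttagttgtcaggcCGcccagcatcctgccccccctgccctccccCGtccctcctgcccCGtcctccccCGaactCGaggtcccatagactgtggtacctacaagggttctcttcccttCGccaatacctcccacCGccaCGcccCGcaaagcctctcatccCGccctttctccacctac
Gabra3, chrX:72656920-72657169: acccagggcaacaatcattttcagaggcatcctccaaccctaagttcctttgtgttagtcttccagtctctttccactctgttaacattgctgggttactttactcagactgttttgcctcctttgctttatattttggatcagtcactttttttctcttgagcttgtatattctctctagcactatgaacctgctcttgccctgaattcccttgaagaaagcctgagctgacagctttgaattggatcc

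The Gabra4 sequence is 195 bases long and stops 55 bases short of the annotated start, where exon sequence of Gabrb1 begins. It lies in an intron of Gabrb1. In windows of 250 bases before each start, Gabra2 held 18 CG pairs, Gabra4 held 12 and Gabra3 held 0, beside a median of 6 over 32851 windows of all genes. A set of 3 short motifs was searched on both strands of these windows. The GC box GGGCGG was in the windows of Gabra2 and Gabra4, in 1 of 3 windows of Gabrb2 and in 32.7% of all windows. The TATA motif TATAAA was in both windows of Gabra3, which overlap, in 1 of 3 windows of Gabrb2 and in 12.4% of all windows. In the printed Gabra3 window the match is the motif on the opposite strand, in the stretch shared by both windows. The TCF/LEF motif CTTTGAT was in 0 of 10 windows of the members and in 3.21% of all windows.

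Each of the 4 alpha genes had its own distribution over the neurons. Gabra4 was highest in relay-like nuclei, Gabra3 in reticular-like nuclei, and Gabra2 in habenula-like and other GABAergic nuclei. Gabra5 was highest in other glutamatergic and other GABAergic nuclei. Levels are UMIs summed over the nuclei of a class and scaled to CPM, so each gene is compared with itself across classes.

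Gabra4, the alpha subunit of extrasynaptic receptors in relay neurons, measured 535.7 CPM (interval 528.7 to 542.8) in relay-like nuclei of the sham library and 459.6 CPM (453.4 to 465.8) in the injury library. Other glutamatergic nuclei followed with 301.0 CPM in sham and 221.5 CPM in injury. Reticular-like nuclei held 60.1 and 58.4 CPM, and other GABAergic nuclei 48.2 and 45.3 CPM. Astrocytes, at 99.2 and 106.4 CPM, and oligodendrocyte precursors, at 81.1 and 82.8 CPM, were above both of these classes. In sham the interval of precursors over reticular-like nuclei included 0 on the log2 scale (0.43, interval -0.02 to 0.87). Habenula-like nuclei held 18.9 CPM in sham and 15.6 CPM in injury, below the 28.4 and 27.7 CPM of oligodendrocytes, which serve here as a background of free RNA. Relay-like nuclei held 8.91-fold the reticular-like level in sham and 7.87-fold in injury. In nuclei thinned to 1000 UMIs, a Gabra4 UMI was found in 38.5% of relay-like nuclei of the sham library (36.9 to 40.1), in 1.63% of habenula-like nuclei (1.10 to 2.31) and in 2.60% of oligodendrocytes (1.62 to 3.95). The unthinned shares were 94.2%, 8.62% and 4.70%, at median depths of 10157, 5249.5 and 1537 UMIs. By CPM and by thinned share Gabra4 in habenula-like nuclei was not above oligodendrocytes. Both measures are relative to the UMIs of a nucleus, and oligodendrocytes were shallower, so they cannot tell free RNA from expression. The unthinned share of Gabra4 in habenula-like nuclei was above that of oligodendrocytes at a greater depth. Whether the level is free RNA was not tested.

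Gabra3, the alpha subunit of reticular neurons, measured 326.9 CPM (308.9 to 345.7) in reticular-like nuclei of the sham library and 303.8 CPM (290.8 to 317.2) in the injury library. This was 2.73-fold the relay-like level in sham and 2.68-fold in injury. Other GABAergic nuclei came next with 144.1 and 169.1 CPM, then other glutamatergic nuclei with 123.5 and 140.0 CPM and relay-like nuclei with 119.6 and 113.5 CPM. The interval of relay-like nuclei over oligodendrocyte precursors, the next class with 105.2 CPM in sham, included 0 on the log2 scale (0.19, interval -0.15 to 0.55). Habenula-like nuclei held 63.0 and 52.2 CPM. Astrocytes and oligodendrocytes were lowest, between 7.60 and 17.4 CPM.

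Gabra2, an alpha subunit of synaptic receptors, had another order. Habenula-like nuclei held 402.1 CPM (390.2 to 414.2) in sham and 387.5 CPM (376.9 to 398.2) in injury, and other GABAergic nuclei held 382.7 and 404.2 CPM. These 2 classes changed places between the libraries and differed by 0.07 on the log2 scale in sham (0.01 to 0.13) and 0.06 in injury (0.01 to 0.11). The Ano2 cluster, named other GABAergic but kept out of the class, held 770.6 CPM in injury. Relay-like nuclei held 170.3 and 148.5 CPM, so the habenula-like level was 2.36-fold the relay-like level in sham and 2.61-fold in injury. Reticular-like nuclei were the lowest neurons, with 91.7 CPM in sham and 92.7 CPM in injury, below astrocytes with 235.8 and 269.4 CPM.

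The classes were often not apart in Gabra5. Other glutamatergic nuclei held 52.6 and 49.4 CPM, other GABAergic nuclei 45.7 and 50.9 CPM, relay-like nuclei 32.3 and 28.3 CPM, reticular-like nuclei 20.4 and 24.2 CPM, and habenula-like nuclei 17.1 and 15.1 CPM. In the sham library, the interval of reticular-like over habenula-like nuclei included 0 on the log2 scale (0.25, interval -0.15 to 0.64). Astrocytes and oligodendrocytes stayed between 2.20 and 4.83 CPM.

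The beta genes were both high in relay-like nuclei and low in habenula-like nuclei, and Gabrb1 was highest outside neurons. Gabrb1 measured 3343 CPM (3177 to 3516) in astrocytes of the sham library and 3230 CPM (3138 to 3324) in the injury library. Other glutamatergic nuclei held 1563 and 1406 CPM, relay-like nuclei 1451 and 1325 CPM, and other GABAergic nuclei 1183 and 1288 CPM. Reticular-like nuclei held 729.3 and 682.8 CPM, and habenula-like nuclei 338.8 and 276.0 CPM. A Gabrb1 UMI was found in 92.3% of thinned sham astrocytes (87.6 to 95.6) and in 7.93% of thinned oligodendrocytes (6.16 to 10.0). Unthinned, the shares were 96.2% and 11.6%, at median depths of 1892 and 1537 UMIs. Gabrb2, the beta subunit that joins alpha4 and delta in many thalamic receptors, was instead low in astrocytes, at 39.7 and 40.7 CPM. It was highest in relay-like nuclei, at 735.2 CPM in sham and 727.3 CPM in injury, and these levels were 5.77-fold and 6.84-fold the habenula-like levels of 127.3 and 106.3 CPM.

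Gabrd, the delta subunit of extrasynaptic receptors, was highest in relay-like nuclei. It stood at 78.1 CPM (75.4 to 80.9) in relay-like nuclei of the sham library and at 76.8 CPM (74.2 to 79.3) in the injury library. Other glutamatergic nuclei held 25.7 and 18.2 CPM, unevenly among their 8 clusters. In sham the Egflam and Npsr1 clusters, with 19.8% of the nuclei, stood at 76.2 and 107.8 CPM and gave 439 and 444 of the 1149 UMIs, while the other clusters ranged from 0.99 to 22.4 CPM, and 4 of them were below the oligodendrocyte level. Reticular-like nuclei held 6.89 and 10.7 CPM, habenula-like nuclei 3.24 and 3.09 CPM, and other GABAergic nuclei 3.28 and 2.47 CPM, from 26 to 72 UMIs in each class and library. Oligodendrocytes held 8.46 CPM (4.62 to 14.2) in sham and 2.94 CPM (1.52 to 5.14) in injury. In CPM, Gabrd in habenula-like and other GABAergic nuclei was not above this background in either library. Unthinned, a Gabrd UMI was found in 1.87% of habenula-like nuclei in both libraries and in 1.83% and 1.32% of other GABAergic nuclei. The shares of the shallower oligodendrocytes were 1.43% and 0.53%, and whether these UMIs are free RNA was not tested. In reticular-like nuclei the CPM of Gabrd was not above the oligodendrocyte level in sham, and the injury level (8.37 to 13.5 CPM) had an interval above that of oligodendrocytes. Unthinned, a Gabrd UMI was found in 4.67% of sham and 8.25% of injury reticular-like nuclei, above the oligodendrocyte shares at a greater depth.

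**Figure D1:**
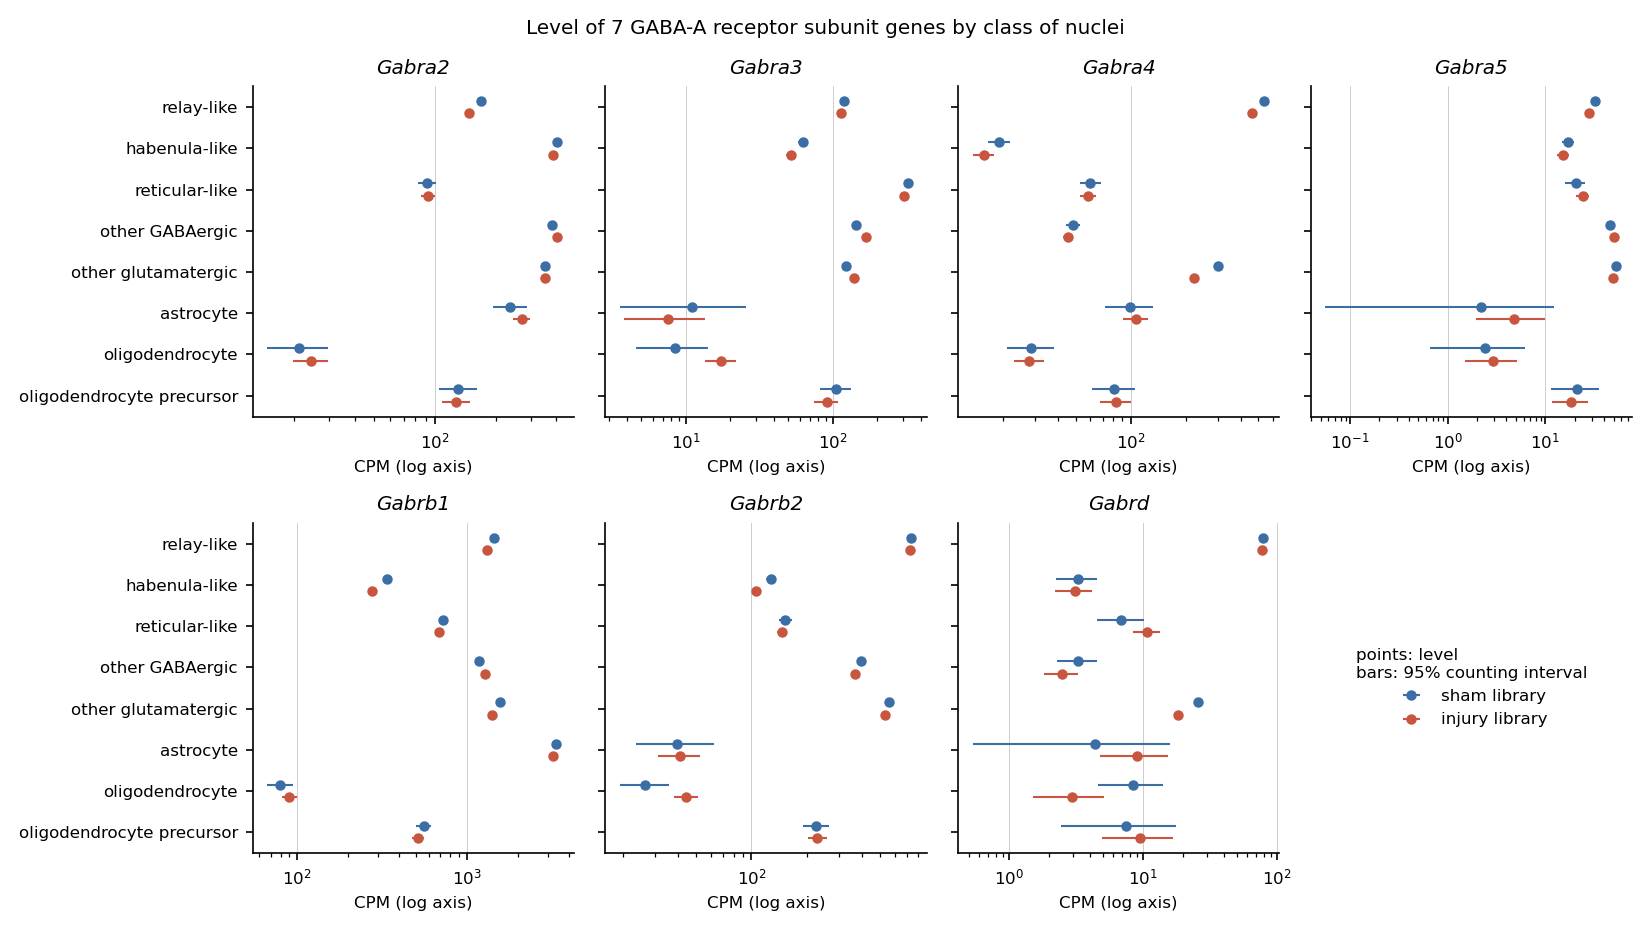
Level of each of the 7 genes (CPM, log axis, 1 panel per gene) in 5 neuron classes and 3 glial classes, with points for the sham and injury libraries and bars for 95% counting intervals. Gabra4 and Gabrd are highest in relay-like nuclei, Gabra3 in reticular-like nuclei and Gabrb1 in astrocytes, and the order of classes is much the same in both libraries.

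Of the 7 genes, 5 differed by 2-fold or more between habenula-like and relay-like nuclei in the sham library, where 24.6% of 15379 genes did. Between reticular-like and relay-like nuclei 4 of 7 did, beside 21.6% of all genes, and between other GABAergic and relay-like nuclei 3 of 7 did, beside 24.0%. Gabra4 and Gabrd were past 2-fold in each of these 3 comparisons.

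Per length, the alpha genes took different shares in each class, counted over the 4 alpha genes reported here and not over all alpha genes. CPM was divided by the length of the gene body, and free RNA was not subtracted. Gabra4 made up 74.4% of the alpha sum in relay-like nuclei of the sham library and 73.6% in the injury library. Gabra2 made up 81.5% and 83.4% in habenula-like nuclei and 62.9% and 62.4% in other GABAergic nuclei. Gabra3 led in reticular-like nuclei with 48.6% and 46.4%, with Gabra4 at 22.6% in both libraries and Gabra2 at 22.1% and 23.0%. The leading gene of each of these 4 classes was the same in both libraries. In other glutamatergic nuclei Gabra4 led in sham with 48.5% against 36.3% for Gabra2, and Gabra2 led in injury with 41.4% against 40.6%.

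With exonic length in place of gene-body length the same genes led the 4 classes named, with Gabra4 at 58.0% of the alpha sum in relay-like, Gabra2 at 67.9% in habenula-like, Gabra3 at 74.3% in reticular-like and Gabra2 at 45.5% in other GABAergic nuclei of the sham library. The beta genes were more even. Gabrb1 made up 45.7% of the beta sum in relay-like nuclei, 53.1% in habenula-like nuclei, 67.1% in reticular-like nuclei and 56.3% in other GABAergic nuclei of the sham library. The injury library gave 43.7%, 52.5%, 66.6% and 60.1%. The delta gene Gabrd reached 5.95 CPM per kb of gene body in relay-like nuclei of the sham library, next to 6.05 for Gabra4 and 3.51 for Gabrb2 on the same scale. Per exonic kb the order was another, with Gabrd at 27.2, Gabra4 at 88.1 and Gabrb2 at 115.6 CPM per kb.

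**Figure D2:**
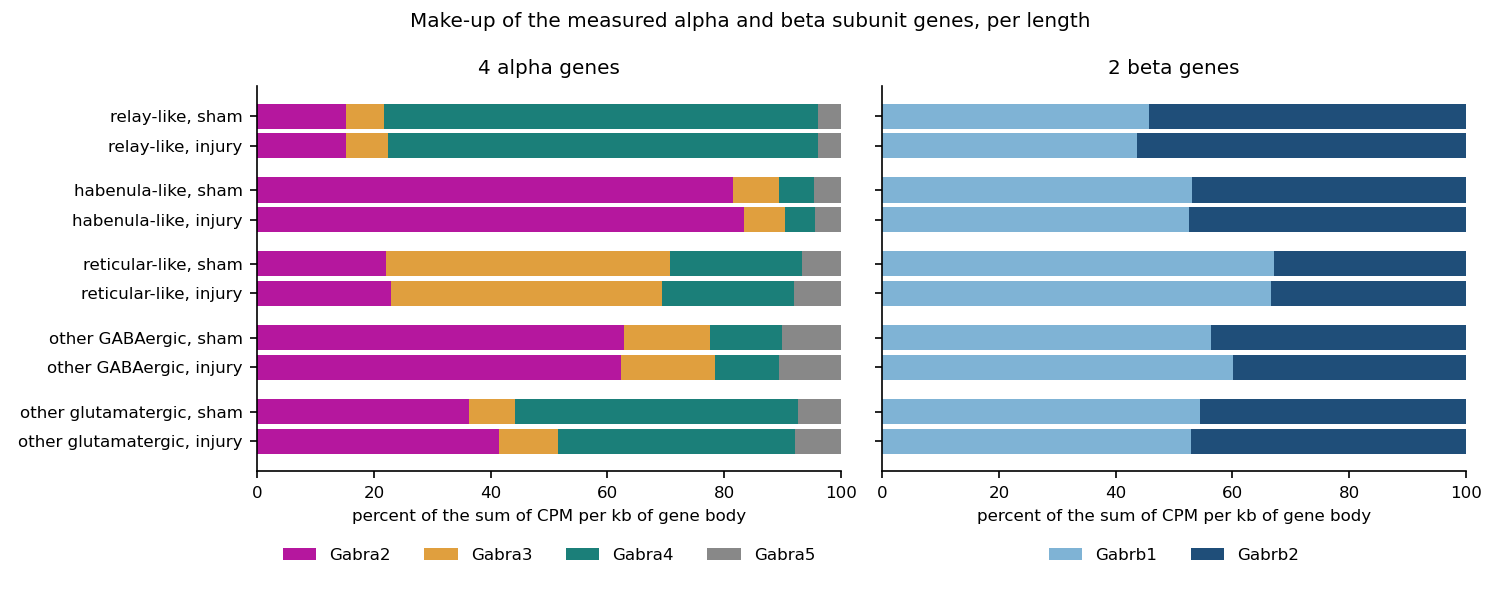
Share of each gene in the summed CPM per kb of gene body over the 4 alpha genes (left) and the 2 beta genes (right), in percent, for 5 neuron classes and both libraries. Gabra4 fills 74.4% of the alpha bar of relay-like sham nuclei, Gabra2 81.5% of the habenula-like bar and Gabra3 48.6% of the reticular-like bar.

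Classes were not uniform inside. In the sham library the Chat cluster of habenula-like nuclei, which carries markers of cholinergic medial habenula neurons, held Gabra2 at 559.8 CPM with Gabra3 at 10.1, Gabra4 at 13.1, Gabrb1 at 129.3 and Gabrb2 at 18.3 CPM. Of these, Gabra4 and Gabrb2 were below the oligodendrocyte levels of 28.4 and 26.6 CPM. Gabra3 was within the interval of its oligodendrocyte level (4.62 to 14.2 CPM). The Pde11a cluster held Gabra2 at 491.5, Gabra3 at 19.2, Gabra4 at 19.6, Gabrb1 at 243.9 and Gabrb2 at 64.5 CPM. The Ptprq cluster was lower than both in Gabra2 and higher in Gabra3, Gabrb1 and Gabrb2, with Gabra2 at 269.6, Gabra3 at 113.8, Gabrb1 at 503.7 and Gabrb2 at 219.3 CPM. In the injury library the Ptprq cluster held the same genes at 256.2, 115.2, 479.3 and 217.4 CPM. The Ptprq cluster gave 602 of the 680 Gabra3 UMIs and 1160 of the 1374 Gabrb2 UMIs of habenula-like sham nuclei.

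Relay-like clusters also differed from each other. The relay-like cluster led by Snx31 held Gabra2 at 282.9 CPM and Gabra4 at 448.7 CPM in sham, whereas the cluster with Prkcd and Adgrf5 among its leading genes held Gabra2 at 75.4 CPM and Gabra4 at 598.1 CPM. Gabrd was 55.2 CPM in the former and 105.6 CPM in the latter. The highest Gabra4, Gabrb1 and Gabrd levels of any compared neuron cluster in sham were in an unnamed glutamatergic cluster led by Npsr1, at 823.7, 2673 and 107.8 CPM. This cluster had the lowest Gabra2 and Gabra3 levels, at 23.3 and 6.80 CPM. Both were within the intervals of the sham oligodendrocyte levels (14.7 to 29.4 and 4.62 to 14.2 CPM). Injury values in the Npsr1 cluster were 695.7 CPM for Gabra4, 2149 CPM for Gabrb1, 104.5 CPM for Gabrd, 24.6 CPM for Gabra2 and 9.66 CPM for Gabra3.

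**Figure D3:**
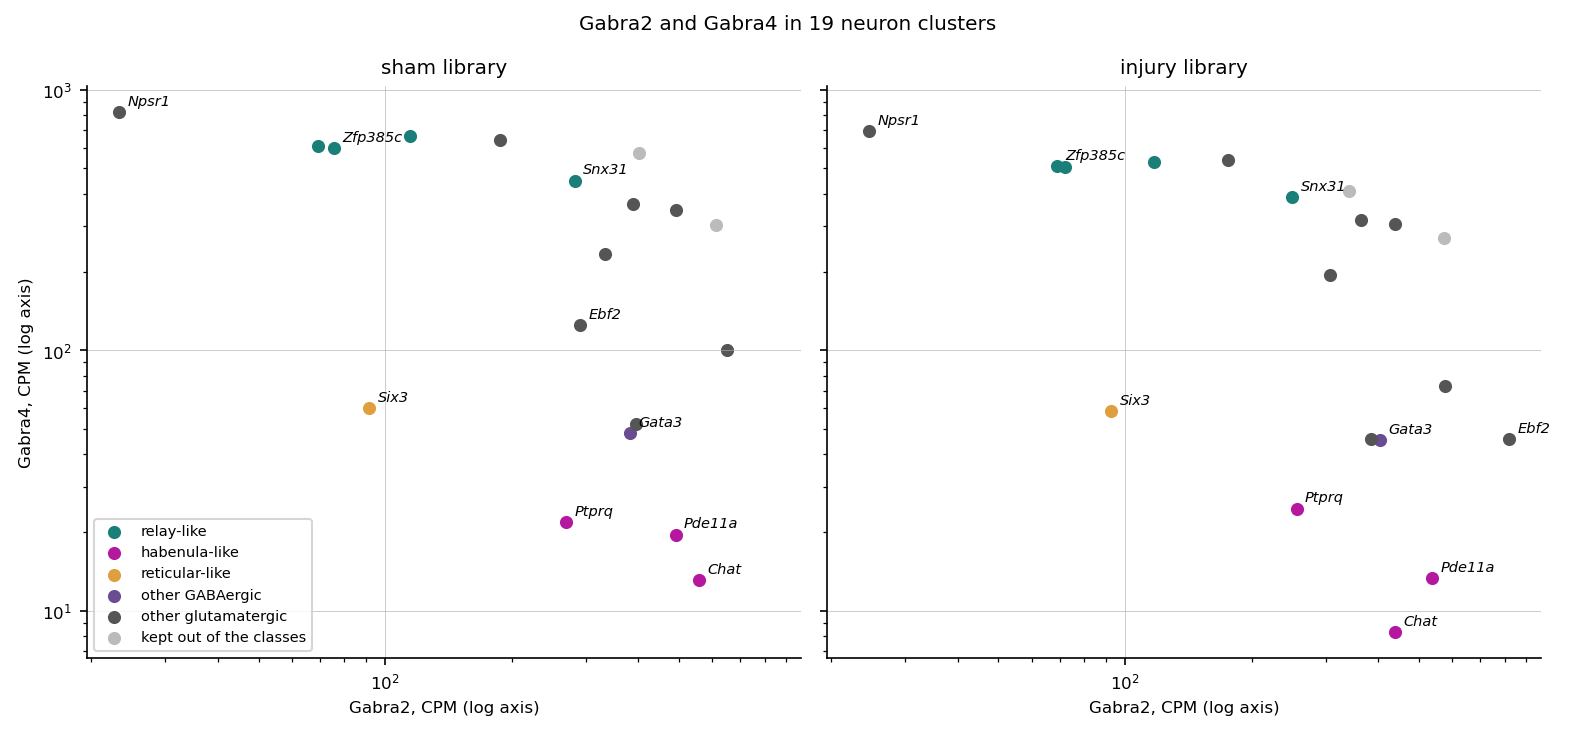
Level of Gabra4 against Gabra2 in 19 neuron clusters with at least 50 nuclei in each library (CPM, log axes), sham library left and injury library right, coloured by class and with the leading gene of some clusters. The Npsr1 cluster sits at the upper left with 823.7 CPM of Gabra4 and 23.3 CPM of Gabra2 in sham, relay-like clusters sit at the top, and the Chat cluster at the lower right with 13.1 and 559.8 CPM.

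Across the 19 neuron clusters with at least 50 nuclei in each library, the genes fell into a group around Gabra4. Values are Pearson's r of log2(CPM + 1), given as a description, since clusters of a library share mice, depth and free RNA. Gabra4 ran with Gabrd (r = 0.88 in sham and 0.87 in injury), with its neighbour Gabrb1 (0.86 and 0.79) and with Gabrb2 (0.83 and 0.81). Gabrb1 and Gabrb2 ran together at 0.93 and 0.94. Gabra2 ran against Gabrd at -0.60 and -0.72 and against Gabra4 at -0.48 and -0.54. Gabra3 showed values between -0.19 and 0.50 with the other members in sham.

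The genes most like each member over these clusters were found among 8573 genes with at least 20 CPM in 1 of these clusters. For Gabra4 they were Cox7b2, a cytochrome c oxidase subunit gene, with r = 0.97 in sham and 0.94 in injury, and Synpo2, which codes for an actin-binding protein, with 0.96 and 0.95. For Gabrd they were the L-type calcium channel gene Cacna1c (0.96 and 0.95) and Nin, which codes for the centrosomal protein ninein (0.96 and 0.94). Gabrb2 was most like Arpp21 (0.95 and 0.94) and Unc80, an auxiliary subunit gene of the sodium leak channel (0.94 and 0.94). Gabrb1 was most like the phosphodiesterase gene Pde9a (0.94 and 0.92) and Asb18 (0.93 and 0.83). Values were lower for Gabra2, with the scaffold gene Magi3 (0.89 and 0.84) and Radil (0.86 and 0.85), and for Gabra5, with Ldb2 (0.90 and 0.81) and Slc9b2 (0.87 and 0.81). Gabra3 was most like Bdh1 (0.83 and 0.81) and the receptor phosphatase gene Ptprg (0.83 and 0.79).

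To see whether cortical injury went with a change in the subunit genes, the injury library was set over the sham library in each class. The ratio of Gabra4 and its interval were below 0 on the log2 scale in relay-like and other glutamatergic nuclei, and the interval included 0 in the 3 other neuron classes. No member differed by as much as 2-fold in a neuron class. A gene is called lower or higher when its log2 ratio is past 0.25 in that direction, with at least 50 UMIs over both libraries. All 7 genes had that many UMIs in each of the 5 neuron classes.

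In relay-like nuclei 0 of 7 genes were past the fold in either direction, where 18.8% of 16149 genes were lower and 12.3% higher. All 7 ratios were below 0, with a median of -0.13, beside a median of -0.03 over all genes, of which 54.6% were below 0. The ratio of Gabra4 was -0.22 (-0.25 to -0.19) and that of Gabra2 was -0.20 (-0.25 to -0.15). Gabra5 gave -0.19 (-0.30 to -0.08), Gabrb1 -0.13 (-0.15 to -0.11) and Gabra3 -0.08 (-0.13 to -0.02). The Snx31 cluster, rich in Gabra2 and Gabra5, held 49.9% of sham and 44.2% of injury relay-like nuclei. With the 4 clusters given equal weight the ratio of Gabra2 was -0.093, that of Gabra5 was -0.063 and that of Gabra4 was -0.26. Gabra2 was below 0 in 2 of 4 relay-like clusters. Gabrb2 (-0.02) and Gabrd (-0.03) had intervals that included 0. In relay-like nuclei 10.3% were called doublets in each library. Without called doublets the ratio of Gabra4 was -0.23.

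In habenula-like nuclei 4 of 7 genes were lower and 0 higher, where 14.7% of 13984 genes were lower and 14.0% higher. The 4 were Gabrb1 at -0.30 (-0.36 to -0.23), Gabra4, at a CPM not above oligodendrocytes, at -0.28 (-0.56 to 0.01), Gabra3 at -0.27 (-0.43 to -0.12) and Gabrb2 at -0.26 (-0.37 to -0.15). The class had a different make-up in the libraries: the Chat cluster, low in these genes, held 32.0% of sham and 45.6% of injury habenula-like nuclei. With each of the 3 clusters given equal weight, 0 genes were past the fold, and the ratios were -0.11 for Gabrb1, -0.24 for Gabra4, 0.0087 for Gabra3 and 0.02 for Gabrb2. Within clusters, Gabrb1 ranged from -0.20 to -0.07. Gabra2, the main alpha gene of these nuclei, was at -0.35 (-0.44 to -0.26) in the Chat cluster, -0.07 (-0.18 to 0.04) in the Ptprq cluster and 0.13 (0.02 to 0.24) in the Pde11a cluster, and at -0.05 (-0.11 to 0.01) in the class. Called doublets were 4.44% of sham and 8.0% of injury nuclei of the class, and without them 3 genes were lower, with Gabrb2 at -0.24.

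In reticular-like nuclei 1 of 7 genes was higher and 0 lower, where 14.7% of 11452 genes were higher and 16.9% lower. It was Gabrd, from 26 UMIs in sham and 72 in injury, with a ratio of 0.64 (-0.03 to 1.34). Its sham level was not above oligodendrocytes in CPM, but its unthinned share was. Gabra3, the leading alpha gene there, was at -0.11 (-0.21 to -0.0027) and Gabrb1 at -0.10 (-0.16 to -0.03). In nuclei thinned to 1000 UMIs Gabra3 had the opposite sign, at 0.12. Gabra5 was at 0.25 (-0.15 to 0.66), just short of the fold, and at 0.71 in thinned nuclei. Gabra4, at -0.04, was above 0 without integration, without called doublets and with mean CPM of single nuclei (0.015, 0.060 and 0.044). The median of the 7 ratios was -0.04. Called doublets were 15.1% of sham and 17.2% of injury nuclei.

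In other GABAergic nuclei 1 of 7 genes was lower and 0 higher, where 13.7% of 14998 genes were lower and 19.5% higher. Here again it was Gabrd, from 36 and 46 UMIs, with a ratio of -0.41 (-1.07 to 0.26) at a CPM not above oligodendrocytes. In nuclei thinned to 1000 UMIs the ratio had the opposite sign, at 0.57. That setting left out 177 sham and 140 injury nuclei with fewer UMIs, and a Gabrd UMI was found in 0.29% and 0.40% of the rest. Called doublets were 4.81% of sham and 12.3% of injury nuclei, and without them the ratio of Gabrd was -0.41 and that of Gabra3 was 0.22. Gabra3 at 0.23 (0.14 to 0.32), Gabrb1 at 0.12 (0.09 to 0.15) and Gabra2 at 0.08 (0.02 to 0.13) were above 0 with their intervals, and Gabrb2 at -0.10 (-0.15 to -0.04) was below, but at 0.044 in thinned nuclei. Gabrb1 was thus above 0 in this class and below 0 in the 4 others.

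In other glutamatergic nuclei 2 of 7 genes were lower and 0 higher, where 13.3% of 17441 genes were lower and 13.4% higher. They were Gabrd at -0.50 (-0.63 to -0.37) and Gabra4 at -0.44 (-0.48 to -0.41). This class also had a changed make-up. The clusters led by Egflam and Npsr1, both rich in Gabra4 and Gabrd, held 19.8% of its sham nuclei and 14.7% of its injury nuclei. With clusters given equal weight the ratio of Gabra4 was -0.28 and that of Gabrd was -0.12. Without called doublets they were -0.41 and -0.49.

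**Figure D4:**
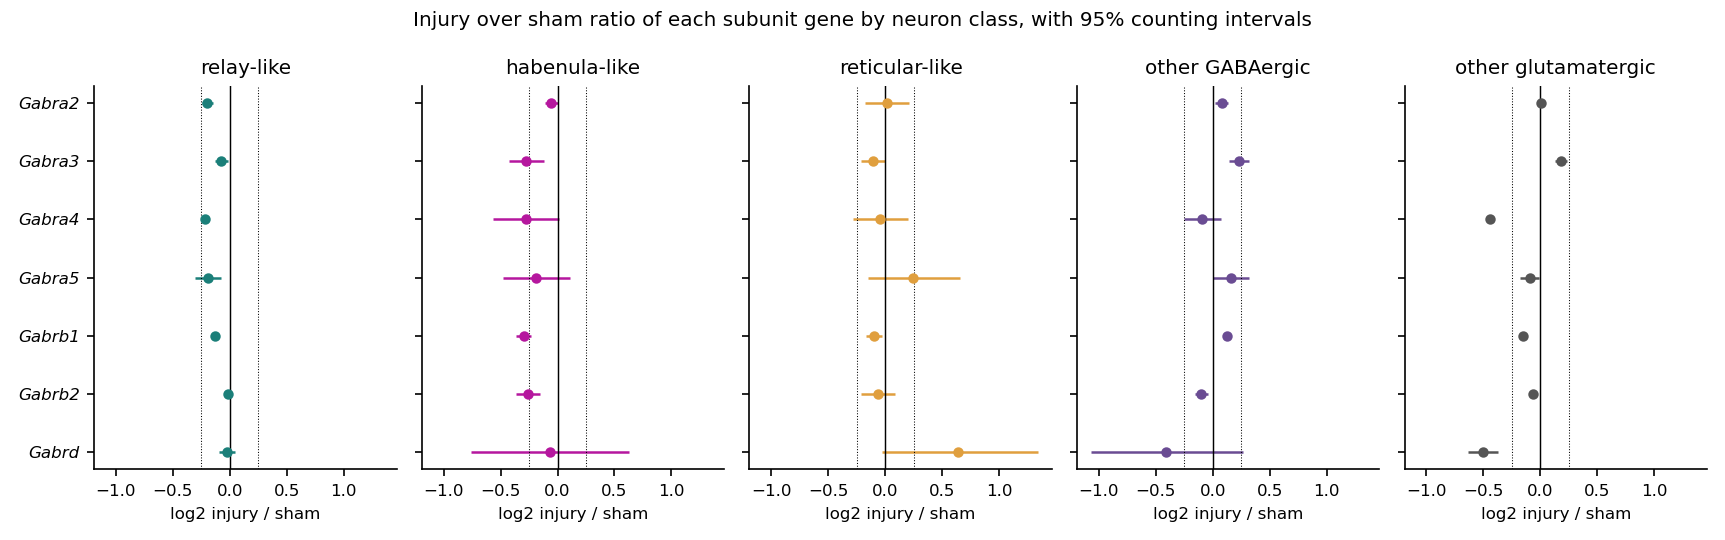
Ratio of injury over sham (log2 scale) of each of the 7 genes in 5 neuron classes, with 95% counting intervals and dotted lines at 0.25 in both directions. In relay-like nuclei all 7 points lie at or below 0 and inside the dotted lines, and in other glutamatergic nuclei Gabra4 at -0.44 and Gabrd at -0.50 lie past them.

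By single clusters, Gabra4 was below 0 in 18 of 19 neuron clusters, with a median ratio of -0.24. The 19 include 2 clusters kept out of the classes, both below 0, and 3 habenula-like clusters, of which 2 were below 0. In the habenula-like clusters the CPM of Gabra4 was not above that of oligodendrocytes. Of 3542 genes with at least 50 UMIs in every one of these clusters, 7.34% were below 0 in as many or more. The clusters come from the same 2 libraries and are not replicates. The interval of Gabra4 was below 0 in 4 of 4 relay-like clusters, with ratios of -0.32 to -0.21, and in 8 of 8 other glutamatergic clusters, with ratios of -1.46 to -0.17. Intervals are narrow for genes with many UMIs. The share of all genes with intervals below 0 in as many clusters was not counted, for Gabra4 or for Gabrb1. Both intervals of the GABAergic classes included 0, at -0.04 (-0.28 to 0.20) in the reticular-like cluster and -0.09 (-0.25 to 0.07) in the other GABAergic cluster. The Ptprq cluster, at 0.17 (-0.20 to 0.55), was the one cluster above 0.

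Gabrb1, the neighbour of Gabra4, was below 0 in 15 of 19 clusters with a median of -0.11, and 22.2% of the 3542 genes were below 0 in as many or more. Its interval was below 0 in 4 of 4 relay-like clusters, at -0.17 to -0.11. Gabrb2 was below 0 in 13 of 19 clusters with a median of -0.03, Gabra2 in 12 of 19 with -0.09, and Gabra3 in 8 of 19 with 0.04. As many or more clusters were below 0 in 32.4%, 38.0% and 60.9% of the 3542 genes, respectively. Gabra5 and Gabrd reached 50 UMIs in 15 and 13 clusters and were below 0 in 9 of each, with no share of all genes counted beside them. In the 4 relay-like clusters Gabra4 went from 448.7 to 387.5, 598.1 to 510.3, 608.8 to 504.7 and 664.5 to 531.1 CPM between the sham and injury libraries.

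An unnamed glutamatergic cluster led by Ebf2, with 72 sham and 175 injury nuclei, had the widest ratios. There Gabra2 was 291.1 CPM in sham and 818.5 CPM in injury (1.49, interval 1.17 to 1.83), and Gabrb1 was 1175 and 1835 CPM (0.64, 0.47 to 0.82). Gabra4 was 125.2 and 45.6 CPM (-1.46, -2.16 to -0.76), and Gabra3 was 253.9 and 107.7 CPM (-1.24, -1.70 to -0.77). Whether the same kind of neuron filled this cluster in both libraries was not tested.

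**Figure D5:**
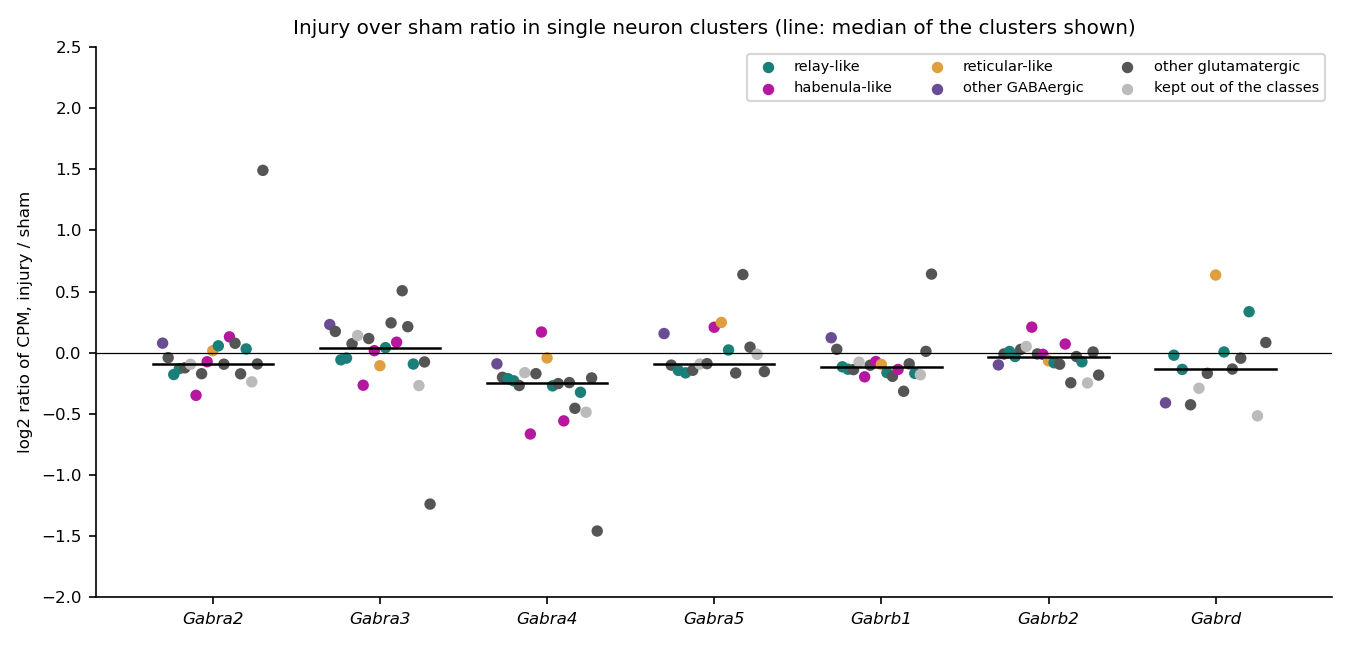
Ratio of injury over sham (log2 scale) of each gene in single neuron clusters, coloured by class, for clusters with at least 50 UMIs of the gene over both libraries, with a line at the median. Gabra4 lies below 0 in 18 of 19 clusters with a median of -0.24, and the outlying points at 1.49 for Gabra2 and -1.46 for Gabra4 belong to the Ebf2 cluster.

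In glia few members had enough UMIs for a narrow interval. Astrocytic Gabrb1 was at -0.05 (-0.13 to 0.03) and astrocytic Gabra2 at 0.19 (-0.12 to 0.51). In oligodendrocyte precursors Gabrb1 was at -0.12 (-0.30 to 0.07) and Gabrb2 at 0.01 (-0.28 to 0.31). In oligodendrocytes Gabra3 was at 1.04 (0.20 to 1.98) from 14 and 71 UMIs, and Gabrb2 at 0.73 (0.25 to 1.24) from 44 and 180 UMIs. These are ratios of the levels taken here as background, 8.46 and 17.4 CPM for Gabra3 and 26.6 and 44.2 CPM for Gabrb2, and are not read as expression in oligodendrocytes. Microglia were not read, since 41.7% of the 36 sham nuclei and 21.0% of the 186 injury nuclei were called doublets.

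The wider machinery of GABA signalling was followed in 28 further genes. Of those with at least 50 UMIs, 6 of 27 were higher and 2 lower in relay-like nuclei, 3 of 27 higher and 4 lower in habenula-like nuclei, 2 of 28 higher and 2 lower in reticular-like nuclei, 0 of 28 higher and 5 lower in other GABAergic nuclei, and 4 of 28 higher and 3 lower in other glutamatergic nuclei. Over all genes the shares higher and lower were 12.3% and 18.8%, 14.0% and 14.7%, 14.7% and 16.9%, 19.5% and 13.7%, and 13.4% and 13.3% in the same order of classes. Gabbr2, a subunit of the metabotropic GABA-B receptor, was higher in relay-like nuclei at 0.34 (0.32 to 0.36) and in habenula-like nuclei at 0.49 (0.46 to 0.53). Plcl1, which codes for a protein that binds GABA-A receptors and guides their traffic, was higher in the same classes at 0.77 (0.67 to 0.86) and 0.29 (0.26 to 0.32). In habenula-like nuclei Slc12a5, the chloride exporter that keeps GABA inhibitory, was lower at -0.49 (-0.63 to -0.34), and Kctd16, an auxiliary GABA-B subunit gene, at -0.31 (-0.40 to -0.22). Ratios of the 28 genes were not computed by cluster in any class, and the Chat cluster held a larger share of habenula-like nuclei in the injury library. Gabarap, which codes for a GABA-A receptor-associated traffic protein, was lower in relay-like nuclei at -0.42 (-0.65 to -0.19), in other GABAergic nuclei at -0.35 (-0.67 to -0.03) and in other glutamatergic nuclei at -0.43 (-0.62 to -0.23).

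The auxiliary GABA-B subunit genes Kctd12 and Kctd8 were lower in other glutamatergic nuclei at -0.72 (-1.13 to -0.31) and -0.27 (-0.31 to -0.22), and in other GABAergic nuclei at -0.83 (-1.51 to -0.17) and -0.32 (-0.38 to -0.26). Kctd12 was also lower in relay-like nuclei at -0.40 (-0.77 to -0.03). Rdx, whose product anchors alpha5 receptors, was higher in reticular-like nuclei at 0.26 (0.01 to 0.52). Of the list of GABA synthesis, loading, uptake and breakdown, 4 of 5 genes were higher in relay-like nuclei and 4 of 6 in other glutamatergic nuclei, where 12.3% and 13.4% of all genes were. In relay-like nuclei Gad2 at 0.31 (-0.18 to 0.81) and Slc6a11 at 0.37 (-0.08 to 0.82) had intervals that included 0 and sham levels of 1.47 and 1.79 CPM, and Abat, which codes for the enzyme that breaks GABA down, was at 0.26 (0.19 to 0.33). Those of other glutamatergic nuclei included Gad1 at 0.79 (0.51 to 1.08), Gad2 at 0.33 (0.16 to 0.50) and Slc6a11 at 0.29 (0.12 to 0.46). The Ebf2 cluster, with Gad1 and Gad2 at 58.1 CPM together over both libraries, held 1.42% of sham and 3.43% of injury nuclei of this class. The Egflam and Npsr1 clusters, at 3.23 and 2.81 CPM, held 19.8% and 14.7%. In other glutamatergic nuclei 12.7% of sham and 18.5% of injury nuclei were called doublets, beside 13.3% and 17.8% of all nuclei, as fixed by the calling rule. Astrocyte markers were higher in the injury library for 5 of 5 genes in relay-like and 4 of 5 in other glutamatergic nuclei. The 3 GABAergic markers Gad1, Gad2 and Slc32a1 belong to the list of GABA synthesis itself, so they are no separate sign of RNA from other cells. The part of doublets, of RNA from other cells and of the make-up of the class in these ratios was not tested. The 12 other subunit genes were counted as a group: of those with enough UMIs, 0 of 6 were past the fold in relay-like nuclei, 3 of 5 were lower in habenula-like nuclei, 2 of 5 lower in reticular-like nuclei, 2 of 7 higher and 2 lower in other GABAergic nuclei, and 2 of 7 higher in other glutamatergic nuclei. These counts stand beside the same shares over all genes, and those of habenula-like nuclei beside the same changed make-up of the class.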

How the data were processed

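Nuclei of the thalamus were sorted after propidium iodide staining and sequenced with the 10x 3′ v3.1 kit. The authors made the deposited UMI counts with Cell Ranger 6.0.2 against GRCm38 and analysed them with Seurat 4.0. The annotation release and the treatment of intronic reads are not given in the sources used here. Each library was 1 matrix of 32285 genes, with 137850696 UMIs in sham and 180106314 in injury.

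Nuclei with over 2% mitochondrial counts, over 7500 genes or under 200 genes were removed, as the study's methods state. Counts were clustered with Seurat 5.3.0 (integrated libraries, 2000 variable genes, 30 principal components, resolution 0.5), and doublets were called but kept. The share called was fixed at 0.8% per 1000 nuclei of a library. A cluster was named from at least 3 markers at 2-fold and 5 CPM or more, and thresholds that kept clusters out of a class were set after the data were seen. UMIs were summed per class or cluster and scaled to CPM. Exact Poisson intervals were used for sums and exact binomial (Clopper-Pearson) intervals for shares and ratios, at 95%. UMIs of 1 library are not independent of its mice, so intervals cover counting error only. With 1 library per group there was no test, and an alternative used edgeR 4.0.16 TMM factors for scaling only. The scripts were tested on simulated data.

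The members and gene lists were chosen with earlier results of these data known. Named were all 7 members, the 2 genes most like each, and up to 3 genes of the 28 per class and direction with the largest ratio past 0.25, at least 50 UMIs and an interval without 0. Other GABA-A receptor subunit genes, and some results that the naming rule gave, are not reported individually here. Alternatives were no integration, finer clusters, no doublets, mean CPM of single nuclei, nuclei thinned to 1000 UMIs, a mean over clusters, TMM factors, a fold of 0.5, no UMI minimum, a prior of 0.5 UMI and, chosen after seeing the data, no barcodes found in both libraries.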

Additional observations from a re-analysis of the deposited data

Results flagged for a closer look

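A cluster of 283 nuclei found in the injury library alone, with Neurod6 among its leading genes and 4 markers of cortex or hippocampus, entered no comparison. It held Gabra5 at 191.8 CPM (177.7 to 206.6), above the highest compared neuron cluster of that library, which held 135.8 CPM.

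Some genes had ratios of opposite sign in single clusters, each with an interval without 0. Gabra2 was at -0.35 in the Chat cluster and 1.49 in the Ebf2 cluster. Gabrb1 was at -0.31 in the Npsr1 cluster and 0.64 in the Ebf2 cluster. Gabrd was at -0.52 in a cluster with Flt1 among its leading genes, which was kept out of the classes, and 0.34 in the relay-like cluster led by Fgf10. These differences between clusters were not tested, since each group was 1 library.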

How the results depend on the processing

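Of the ratios of members in classes, 242 values under the alternatives stayed within the interval of the reported value, 36 moved outside it and 2 that were past the fold with an interval without 0 reversed. With a mean over clusters, habenula-like Gabra3 was 0.0087 and Gabrb2 was 0.020, the count of lower genes was 0 and the median -0.10. That setting also gave 1 lower gene and a median of -0.063 in relay-like nuclei, and 1 lower gene in other glutamatergic nuclei. Mean CPM of single nuclei gave 3 lower genes and a median of -0.15 in relay-like nuclei, 2 higher genes in reticular-like nuclei and 2 lower genes in other GABAergic nuclei. Nuclei thinned to 1000 UMIs gave 1 lower relay-like gene, a habenula-like median of -0.42, 2 higher reticular-like genes and 2 higher genes in other GABAergic nuclei. TMM factors gave a relay-like median of -0.11 and 2 higher reticular-like genes, as did no integration and leaving out called doublets for the latter count. A fold of 0.5 left 0 lower genes in habenula-like, 0 in other GABAergic and 1 in other glutamatergic nuclei. The causes of these moves were not tested. Over all alternatives Gabra4 ranged from -0.27 to -0.20 in relay-like, -0.47 to -0.24 in habenula-like, -0.15 to 0.06 in reticular-like, -0.48 to -0.08 in other GABAergic and -0.47 to -0.28 in other glutamatergic nuclei. The count of lower habenula-like genes was 3 without called doublets, with TMM factors and without the barcodes found in both libraries, where Gabrb2 was at -0.24 or -0.25 and no longer past the fold. It was 6 with mean CPM of single nuclei and 5 in thinned nuclei. Thinning also turned the sign of Gabrd (0.57) and Gabrb2 (0.044) in other GABAergic nuclei and of Gabra3 (0.12) in reticular-like nuclei, and a mean over clusters that of Gabra3 in other glutamatergic nuclei (-0.11). Ratios near 0 changed sign in further settings. Low UMI sums limit Gabrd outside relay-like and other glutamatergic nuclei, and in some clusters of the latter. No paired analysis was possible because there was a single library for sham and a single library for injury.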
